A study of Mus musculus with 6 samples.

Results

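The 10 genes described here code for the catalytic subunits, the ring-shaped activators and an assembly chaperone of the proteasome that makes peptides for antigen presentation. They were chosen by name from 54532 genes in the deposited table: the inducible catalytic genes Psmb8, Psmb9 and Psmb10, the constitutive catalytic genes Psmb5, Psmb6 and Psmb7, the activator genes Psme1, Psme2 and Psme3, and the chaperone gene Pomp. Each symbol matched 1 row, and all 10 passed a filter that asked for 1 FPKM or more on average over the 6 libraries. FPKM is the number of sequenced fragments scaled to the length of the gene and to the size of the library.

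MC38 is a mouse colon cancer line, and poly-A RNA was sequenced from MC38 tumours that had grown under the skin of wild-type C57BL/6 mice, after cells carrying the leukocyte protein CD45 had been taken out with microbeads. The tumour cells were either wild type (3 libraries) or carried a CRISPR/Cas9 knockout of Npm1 (3 libraries), the gene of the nucleolar chaperone nucleophosmin. All hosts were wild type and no further treatment is named, and whether the knockout is 1 clone is not given in the sources used here. Separate animals or cultures are not stated either, so the p-values speak only of the spread among these 6 samples, part or all of which may be technical.

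The proteasome cuts ubiquitin-tagged proteins inside a barrel whose active sites lie on the beta subunits beta1, beta2 and beta5. Under interferon gamma the inducible forms LMP2, MECL1 and LMP7 take their places, which gives the immunoproteasome, and its cuts favour peptides that bind MHC class I. The chaperone POMP guides barrel assembly, and the activators PA28 alpha, beta and gamma cap the barrel ends.

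In the knockout libraries all 3 inducible catalytic genes rose, by 1.67 to 1.85 times, with Psme2 (1.76 times) and Pomp (1.62 times). The 3 constitutive catalytic genes had higher means in the knockout (1.33 to 1.56 times) without passing the test, and Psme3 stood at 0.875 times its wild-type mean. Thus 5 of the 10 genes passed upward and 0 passed downward with limma at an adjusted p under 0.05, against a background of 5.91% of the 11287 genes tested passing upward and 8.3% downward. At an unadjusted p under 0.05 the counts were 8 upward and 0 downward, beside 3740 of the 11287 genes in either direction. Limma-voom on recovered fragment numbers called 6 members upward and 0 downward, beside 1578 of all genes in either direction. Beyond the 5 above it called the constitutive gene Psmb6. The libraries of the 2 groups did not overlap for 8 genes, 7 higher and 1 lower in the knockout, against 16% and 19.6% of all genes tested. The median log2 difference was 0.64 over the 10 genes and 0.024 over all genes tested.

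The count of 5 changed whichever library was left out. It was 1 (Psmb9) without wild-type replicate 1, 0 without wild-type replicate 2 or 3, 0 without knockout replicate 1 or 2, and 9 without knockout replicate 3. Over all genes tested, those called in either direction were 1369, 890 and 7 without wild-type replicates 1, 2 and 3. Without knockout replicates 1, 2 and 3 they were 88, 209 and 2805. Knockout replicate 3 was the lowest knockout library for 9 of the 10 genes, Psme3 being the exception.

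Some facts of the whole series stand beside every value below. The libraries held 16917778 to 18662688 fragments, and each of the 10 genes had 1193 to 8184 fragments per library, so counting error was at most 2.90%, below the spread between libraries. Npm1 itself was measured at 200 ± 32.7 FPKM in wild type and 159 ± 31.3 FPKM in the knockout (SD, n = 3 each, log2 difference -0.33, limma adjusted p = 0.268) with overlapping groups, so the level as deposited does not check the labels. With the length and GC surface described below subtracted, Npm1 fell by 0.73 on the log2 scale (limma adjusted p = 0.0434), and by 0.74 with the principal-transcript surface (limma adjusted p = 0.0438). On the first principal component, with 54.7% of the variance, knockout replicate 3 (6.21) lay nearest to wild type (-26.2 to -18.9) and the other two knockout libraries lay at 27.2 and 33.4. The deviation of each library from the mean followed transcript length across genes, with Spearman's rho of 0.137 to 0.565 in wild type, -0.58 and -0.55 in knockout replicates 1 and 2, and 0.28 in knockout replicate 3. With a smooth surface over length and GC content of each gene's longest transcript subtracted, 1.27% of 11269 genes passed upward and 1.55% downward, and 3 of the 10 members passed upward (Psmb8, Psmb9 and Psmb10). At an unadjusted p under 0.05 that fit had 7 members upward and 1 downward, beside 2925 of the 11269 genes in either direction. With the surface drawn from principal coding transcripts instead, Psmb10 alone passed.

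Marker levels bear on which cells the RNA came from. The summed FPKM of 20 leukocyte markers was 4.77 to 10.9 in wild type and 5.87 to 7.46 in the knockout, with Cd3e at 0 in every library. Dendritic cell markers summed to 1.86 to 5.95 FPKM in wild type and 1.14 to 1.60 FPKM in the knockout over 7 genes, with Flt3 and Siglech at 0. Nearly all of that sum was Zbtb46, at 4.21 ± 2.17 FPKM in wild type and 1.22 ± 0.179 FPKM in the knockout (SD, n = 3 each, log2 difference -1.13, limma adjusted p = 0.0371), and the other 6 genes were near or at 0. Those of endothelial cells summed to 2.38 to 5.98 FPKM and 1.02 to 2.13 FPKM over 9 genes, and none of the 9 passed the filter. The 10 colon epithelial markers summed to only 2.20 to 2.76 FPKM in wild type and 1.59 to 2.41 FPKM in the knockout, so the labelled colon origin is not borne out by them, while the 10 fibroblast markers summed to 1165 to 1742 FPKM and 1544 to 1729 FPKM. Col3a1 made up most of the fibroblast sum, and single markers moved in opposite directions: of 9 tested, Dpt rose by 2.19 on the log2 scale (limma adjusted p = 0.00289), Pi16 by 1.43 (limma adjusted p = 0.0111) and Dcn by 1.28 (limma adjusted p = 0.0180), and Col1a1 fell by 1.88 (limma adjusted p = 0.0228). With the longest-transcript surface subtracted, Dpt (1.98, limma adjusted p = 0.0105) and Pi16 (1.76, limma adjusted p = 0.0308) still rose. Dcn (0.91, limma adjusted p = 0.0780), Col1a1 (-1.17, limma adjusted p = 0.138) and Zbtb46 (-0.83, limma adjusted p = 0.163) did not pass there. Red blood cell markers summed to 1.46 to 22.4 FPKM in wild type and 12.6 to 81.1 FPKM in the knockout over 4 globin genes. The part of the fibroblast, dendritic cell and globin markers in the results was not tested. In such bulk samples, fewer cells of a type and less RNA per cell cannot be told apart.

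Psmb10 (ENSMUSG00000031897, GRCm38 chromosome 8, 105935735 to 105938444, minus strand) codes for the inducible beta2 subunit MECL1. Wild-type libraries held it at 114, 119 and 133 FPKM and the knockout libraries at 263, 250 and 165 FPKM. Every knockout library was above every wild-type library, and knockout replicate 3 was closest to them. The means of 122 ± 10.1 FPKM and 226 ± 53.1 FPKM (SD, n = 3 each) differed by 0.86 on the log2(FPKM + 1) scale (SE 0.20, 95% interval 0.41 to 1.30, limma adjusted p = 0.0258). That was the largest difference of the 10 in this fit, and the difference of Psmb10 was 0.70 with the longest-transcript surface subtracted (limma adjusted p = 0.0390) and 0.72 with the principal one (limma adjusted p = 0.0438).

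Psmb8 (ENSMUSG00000024338, chromosome 17, 34197721 to 34201454, plus strand) codes for the inducible beta5 subunit LMP7. Its levels were 78.7, 68.6 and 86.9 FPKM in wild type and 153, 146 and 103 FPKM in the knockout. Again the groups did not overlap. The means of 78.1 ± 9.15 FPKM and 134 ± 27.2 FPKM (SD, n = 3 each) differed by 0.76 on the log2 scale (SE 0.19, 95% interval 0.34 to 1.18, limma adjusted p = 0.0309), which was 0.66 with the longest-transcript surface subtracted (limma adjusted p = 0.0498) and 0.69 with the principal one, where it no longer passed.

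Psmb9 (ENSMUSG00000096727, chromosome 17, 34181988 to 34187764, minus strand) codes for the inducible beta1 subunit LMP2 and lies near Psmb8 in the MHC region. It stood at 37.1, 31.8 and 34.4 FPKM in wild type and at 66.0, 62.9 and 43.8 FPKM in the knockout. The groups did not overlap, with knockout replicate 3 again the lowest of its group. The means of 34.4 ± 2.65 FPKM and 57.6 ± 12.0 FPKM (SD, n = 3 each) differed by 0.71 on the log2 scale (SE 0.18, 95% interval 0.31 to 1.10, limma adjusted p = 0.0324). Subtracting the longest-transcript surface gave 0.82 (limma adjusted p = 0.0482), and subtracting the principal one gave 0.56, which did not pass (limma adjusted p = 0.0705). Permuting the 6 values of each of these 3 genes exactly (two-sided) gave p = 0.1, the smallest that 3 against 3 allow.

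Antisense genes overlap Psmb8 (Gm20496, mean 1.08 FPKM) and Psmb10 (Gm16156, mean 0.26 FPKM), and the counting strand is not given in the sources used here. Fragments of the 2 strands can therefore not be told apart there.

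**Figure D1:**
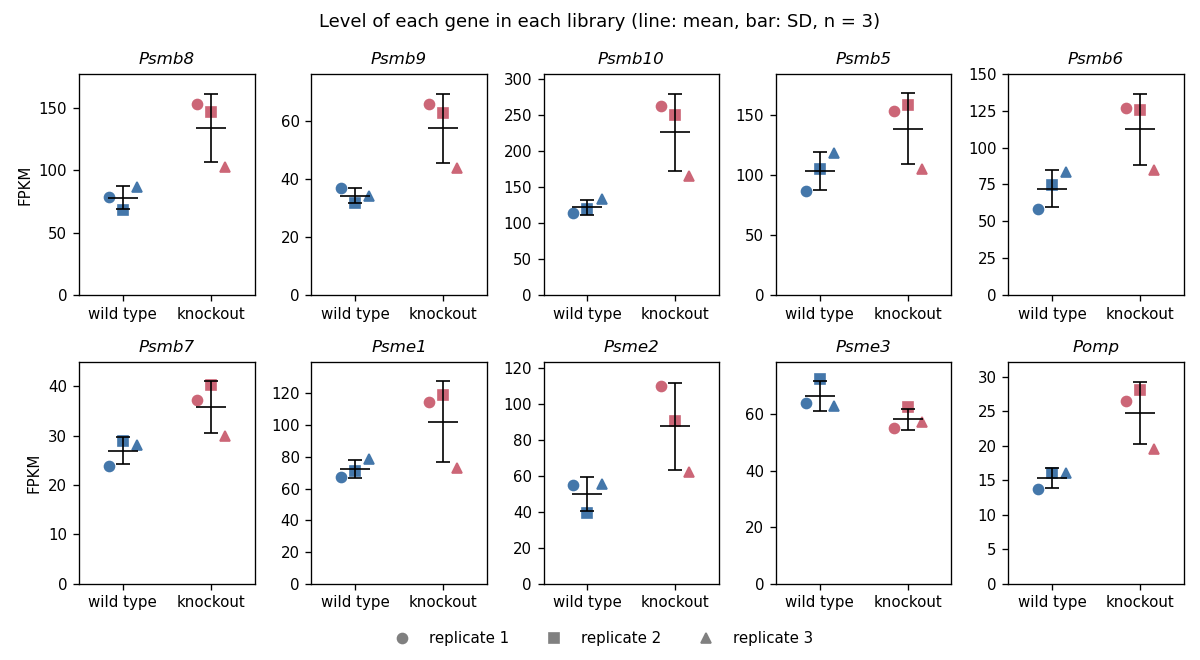
Level in FPKM of each of the 10 genes in each library (points, with the replicate given by shape), with the group mean (line) and SD (bar, n = 3). Knockout replicate 3, the triangle, is the lowest knockout library in every panel but that of Psme3, and the groups overlap for Psmb5 and Psme1.

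The promoter windows of the 3 inducible genes and of the constitutive genes Psmb5 and Psmb6 are shown because these 5 genes hold 2 of the partner pairs compared and the inducible gene with the largest difference. The sequences are RefSeq windows of build GRCm38.p6, from 250 bases before to 50 bases after the start site, written 5′ to 3′ on the strand of the gene. Capitals mark matches to 3 short motifs searched on both strands: GAAANNGAA for interferon regulatory factors, TTCNNNGAA for the interferon gamma activated site (GAS element), and TGACNNNGC for the antioxidant response element.
Psmb8, chr17:34197945-34198244, plus strand: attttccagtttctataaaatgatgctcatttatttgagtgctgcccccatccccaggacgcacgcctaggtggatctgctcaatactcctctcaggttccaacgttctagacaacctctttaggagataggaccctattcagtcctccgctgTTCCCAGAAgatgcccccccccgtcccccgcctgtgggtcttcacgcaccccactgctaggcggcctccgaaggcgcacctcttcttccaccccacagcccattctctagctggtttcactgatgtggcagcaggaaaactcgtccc
Psmb9, chr17:34187281-34187580, minus strand: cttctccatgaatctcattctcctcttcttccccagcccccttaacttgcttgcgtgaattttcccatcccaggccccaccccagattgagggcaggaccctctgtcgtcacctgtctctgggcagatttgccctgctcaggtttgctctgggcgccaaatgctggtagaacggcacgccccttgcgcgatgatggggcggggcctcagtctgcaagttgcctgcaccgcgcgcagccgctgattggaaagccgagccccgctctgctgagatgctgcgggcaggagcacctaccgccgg
Psmb10, chr8:105938343-105938642, minus strand: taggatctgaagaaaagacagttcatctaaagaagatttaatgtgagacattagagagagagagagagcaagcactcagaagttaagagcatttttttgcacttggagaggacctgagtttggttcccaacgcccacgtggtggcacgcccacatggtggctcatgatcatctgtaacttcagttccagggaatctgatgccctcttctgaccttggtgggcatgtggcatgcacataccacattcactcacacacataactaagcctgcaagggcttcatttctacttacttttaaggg
Psmb5, chr14:54617946-54618245, minus strand: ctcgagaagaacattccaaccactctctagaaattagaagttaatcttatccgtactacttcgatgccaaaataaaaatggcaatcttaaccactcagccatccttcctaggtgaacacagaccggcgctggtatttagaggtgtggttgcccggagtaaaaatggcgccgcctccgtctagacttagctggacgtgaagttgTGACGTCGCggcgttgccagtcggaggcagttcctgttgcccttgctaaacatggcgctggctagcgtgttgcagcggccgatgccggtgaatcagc
Psmb6, chr11:70525107-70525406, plus strand: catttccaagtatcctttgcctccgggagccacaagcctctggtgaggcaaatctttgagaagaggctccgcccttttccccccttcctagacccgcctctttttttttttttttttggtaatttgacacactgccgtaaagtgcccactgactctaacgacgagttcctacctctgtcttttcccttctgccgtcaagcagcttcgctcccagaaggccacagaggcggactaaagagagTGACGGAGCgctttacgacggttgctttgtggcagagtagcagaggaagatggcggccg

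Psmb8 held a GAS match, TTCCCAGAA, 97 bases before its RefSeq start site. The whole windows of Psmb8 and Psmb9 lie inside these genes as annotated above, which begin further upstream, at 34197721 and 34187764. The 2 constitutive genes each held a match to the antioxidant motif, TGACGTCGC starting 47 bases before the start site of Psmb5 and TGACGGAGC starting 9 bases before that of Psmb6. Psmb9 and Psmb10 held no match to these letters. Of the 9 members with a RefSeq window (all but Psmb7), 2 held the interferon regulatory factor motif (Psme1 and Pomp), 1 the GAS motif and 2 the antioxidant motif, and no 2 matches overlapped. Over all 32851 windows of 300 bases, 8.56%, 8.30% and 12.4% held these motifs in the same order. A match here is a string of letters, not a site bound by a factor.

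The window of Psmb9 is shared with Tap1, the gene of a subunit of the transporter that carries proteasome peptides into the endoplasmic reticulum. Their RefSeq start sites, at 34187330 and 34187556 on chromosome 17, are separated by 225 bases and point away from each other, so their windows share 275 bases. On the log2 scale Psmb9 rose by 0.71 and Tap1 was 0.20 higher without passing (84.6 ± 11.1 FPKM in wild type and 97.1 ± 5.40 FPKM in the knockout, SD, n = 3 each, limma adjusted p = 0.382). The ratio of Psmb9 to Tap1 was 0.405, 0.442 and 0.381 in wild type, against 0.680, 0.614 and 0.478 in the knockout, with groups that did not overlap. Tap1 itself did not overlap between groups either. The gap of 0.50 on the log2 scale between the 2 genes was not tested, and it shrank to 0.28 with the longest-transcript surface subtracted and to 0.10 with the principal one. The annotated genes overlap by 212 bases on opposite strands.

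Psmb5 (ENSMUSG00000022193, chromosome 14, 54614119 to 54618022, minus strand) codes for the constitutive beta5 subunit, which carries the chymotrypsin-like activity. It was measured at 87.0, 105 and 118 FPKM in wild type and at 153, 158 and 105 FPKM in the knockout. Knockout replicate 3 lay within the wild-type range, so the groups overlapped. A log2 difference of 0.41 (95% interval -0.04 to 0.85, SE 0.20, limma adjusted p = 0.185) lay between means of 103 ± 15.7 FPKM and 139 ± 29.6 FPKM (SD, n = 3 each), and 0.16 with the longest-transcript surface subtracted.

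Psmb6 (ENSMUSG00000018286, chromosome 11, 70525367 to 70527858, plus strand) codes for the constitutive beta1 subunit, which cuts after acidic residues. Wild-type levels were 58.6, 74.3 and 83.5 FPKM, and knockout levels were 127, 126 and 84.6 FPKM. The groups did not overlap, by a margin of about 1 FPKM between wild-type replicate 3 and knockout replicate 3. Its log2 difference of 0.62 (SE 0.20, 95% interval 0.17 to 1.08) did not pass (limma adjusted p = 0.0656), and it was 0.35 with either surface subtracted. Psmb6 did pass in 5 of 25 alternative settings. These were a filter of 5 FPKM, quantile normalization, array weights, limma-voom, and the fit without knockout replicate 3.

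Psmb7 (ENSMUSG00000026750, chromosome 2, 38588036 to 38644087, minus strand) codes for the constitutive beta2 subunit, which carries the trypsin-like activity. It stood at 23.9, 28.9 and 28.1 FPKM in wild type and at 37.1, 40.4 and 30.0 FPKM in the knockout. These groups did not overlap. The log2 difference of 0.39 (95% interval 0.04 to 0.75, SE 0.16, limma adjusted p = 0.120) was 0.025 with the longest-transcript surface subtracted and 0.10 with the principal one. Psmb7 overlaps Nek6 on the other strand over 6571 bases, where Nek6 had a mean of 3.03 FPKM.

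Each inducible gene replaces a known constitutive partner, so the partner ratio within a library asks whether the balance moved, whatever scaling the library had. For Psmb8 over Psmb5 the ratio was 0.905, 0.654 and 0.734 in wild type, against 0.998, 0.924 and 0.984 in the knockout. All knockout ratios were above all wild-type ratios, with wild-type replicate 1 close to them. The log2 ratio differed by 0.35, 1.28 times (exact two-sided permutation p = 0.1, Benjamini-Hochberg adjusted 0.125 over 5 ratios).

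For Psmb10 over Psmb7 the ratio was 4.77, 4.12 and 4.74 in wild type, against 7.08, 6.19 and 5.51 in the knockout. The groups were apart here too, by 0.46 on the log2 scale or 1.37 times (exact two-sided permutation p = 0.1, adjusted 0.125). For Psmb9 over Psmb6 the ratio was 0.633, 0.427 and 0.412 in wild type, against 0.521, 0.501 and 0.518 in the knockout. The knockout libraries were close to each other (SD 0.03 on the log2 scale) and lay between the wild-type libraries (SD 0.34), so this pair showed no difference beyond the spread: 0.093 on the log2 scale (exact two-sided permutation p = 0.8, adjusted 0.8). This difference in the log2 ratio Psmb9/Psmb6 ran from -0.019 without wild-type replicate 3 to 0.29 without wild-type replicate 1. It was 0.47 with the longest-transcript surface subtracted. With that surface the log2 ratios of the other partners differed between the groups by 0.50 for Psmb8 over Psmb5 and 0.68 for Psmb10 over Psmb7. With the principal surface subtracted, the single differences were closer for Psmb9 and Psmb6, at 0.56 and 0.35. They were 0.69 and 0.17 for Psmb8 and Psmb5, and 0.72 and 0.10 for Psmb10 and Psmb7.

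**Figure D2:**
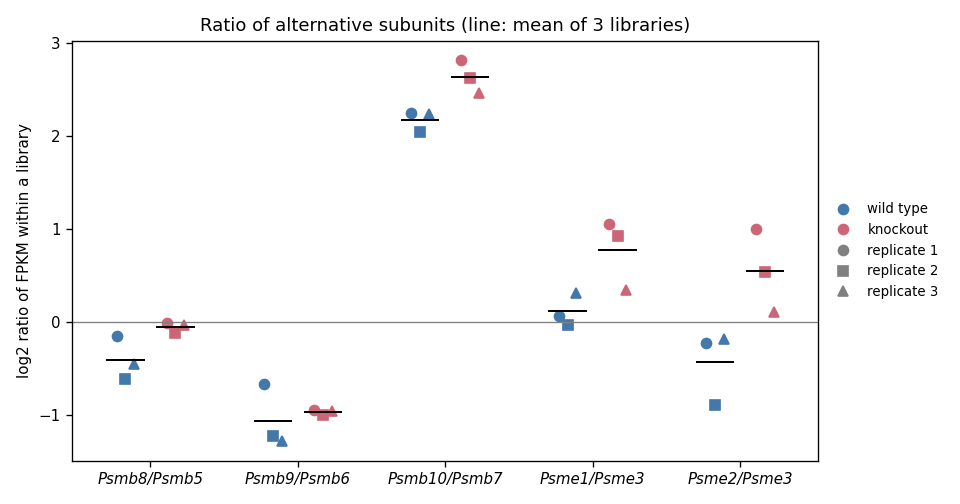
Log2 ratio of FPKM of 2 alternative subunits within each library (points, with the replicate given by shape) and the mean of 3 libraries (line). The groups are apart for 4 of the 5 ratios (exact two-sided permutation p = 0.1 each, the smallest possible). For Psmb9 over Psmb6 the knockout libraries lie inside the wild-type range.

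The inducible genes made up 57.5%, 51.3% and 52.5% of the summed FPKM of the 6 catalytic genes in the wild-type libraries and 60.3%, 58.6% and 58.7% in the knockout libraries. The groups did not overlap, and wild-type replicate 1 stood about 1 point under the lowest knockout library. Means were 53.8% ± 3.29 and 59.2% ± 0.957 (SD, n = 3 each), a difference of 5.41 points. The difference was 4.75 points with fragments per kilobase of the principal coding transcript, and 8.92 points with the longest-transcript surface subtracted. These are shares of transcripts and were not tested.

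Psme1 (ENSMUSG00000022216, chromosome 14, 55578123 to 55581529, plus strand) codes for PA28 alpha, which forms a mixed ring with PA28 beta and is inducible by interferon gamma. It was measured at 67.0, 71.1 and 78.5 FPKM in wild type and at 115, 119 and 72.8 FPKM in the knockout. Knockout replicate 3 lay inside the wild-type range. The log2 difference of 0.47 (SE 0.20, 95% interval 0.02 to 0.91) did not pass (limma adjusted p = 0.137), and an exact two-sided permutation test gave p = 0.2. It was 0.26 with the principal surface subtracted.

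Psme2 (ENSMUSG00000079197, chromosome 14, 55587441 to 55591113, minus strand) codes for PA28 beta. Its levels were 54.8, 39.2 and 55.7 FPKM in wild type and 110, 90.7 and 62.0 FPKM in the knockout, without overlap. Means of 49.9 ± 9.25 FPKM and 87.6 ± 24.2 FPKM (SD, n = 3 each) differed by 0.78 on the log2 scale (SE 0.23, 95% interval 0.28 to 1.28, limma adjusted p = 0.0463), and 0.52 with either surface subtracted, where it did not pass (limma adjusted p = 0.129 and 0.132).

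Psme2 has a near-identical copy, Psme2b (ENSMUSG00000078153, chromosome 11, 48945354 to 48946190), and how the authors treated fragments that match both is not given in the sources used here, so both values are uncertain. Psme2b was measured at 61.5, 67.8 and 68.8 FPKM in wild type and 101, 150 and 89.0 FPKM in the knockout, and it rose too (log2 difference 0.73, SE 0.20, limma adjusted p = 0.0383), but was at 0.41 without passing with either surface subtracted (limma adjusted p = 0.150 with the longest-transcript one). Summed over both copies, there were 2813, 2171 and 2531 fragments in wild type, against 5091, 5034 and 3452 in the knockout. Scaled to library size, that sum was 1.73 times higher in the knockout (log2 0.79, no overlap, exact two-sided permutation p = 0.1), and Psme2b held 30.3% to 45.0% of it.

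Psme3 (ENSMUSG00000078652, chromosome 11, 101316213 to 101323537, plus strand) codes for PA28 gamma, a nuclear activator that forms rings of its own and is not known as an interferon gamma target. It was the one member with a lower mean in the knockout, at 64.0, 72.6 and 63.1 FPKM in wild type and 55.1, 62.5 and 57.2 FPKM in the knockout. The groups came within about 1 FPKM of each other without overlapping. Its log2 difference was -0.19 (SE 0.14, 95% interval -0.50 to 0.13, limma adjusted p = 0.377) between means of 66.6 ± 5.24 FPKM and 58.3 ± 3.78 FPKM (SD, n = 3 each).

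The interferon-inducible activator genes had higher ratios to Psme3 in the knockout libraries, though both ratios share Psme3 and neither passed after adjustment. Psme2 over Psme3 was 0.856, 0.540 and 0.882 in wild type, against 1.998, 1.45 and 1.08 in the knockout, a difference of 0.98 on the log2 scale or 1.97 times. Psme1 over Psme3 was 1.05, 0.980 and 1.24 in wild type, against 2.08, 1.90 and 1.27 in the knockout, a difference of 0.66 or 1.58 times. Neither ratio overlapped between groups, and each had an exact two-sided permutation p = 0.1 (adjusted 0.125). For Psme1 over Psme3 the margin was small, between 1.24 in wild-type replicate 3 and 1.27 in knockout replicate 3. With the longest-transcript surface subtracted the differences were 0.75 and 0.69.

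Pomp (ENSMUSG00000029649, chromosome 5, 147860461 to 147876456, plus strand) codes for the proteasome maturation protein, a chaperone that is used up when the barrel closes. It was measured at 13.6, 16.1 and 16.1 FPKM in wild type and at 26.5, 28.1 and 19.6 FPKM in the knockout. No knockout library fell into the wild-type range. The means of 15.3 ± 1.41 FPKM and 24.7 ± 4.54 FPKM (SD, n = 3 each) differed by 0.65 on the log2 scale (SE 0.17, 95% interval 0.28 to 1.02, limma adjusted p = 0.0346). It was 0.75 with the longest-transcript surface subtracted (limma adjusted p = 0.0528) and 0.43 with the principal one (limma adjusted p = 0.0706), and passed with neither.

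**Figure D3:**
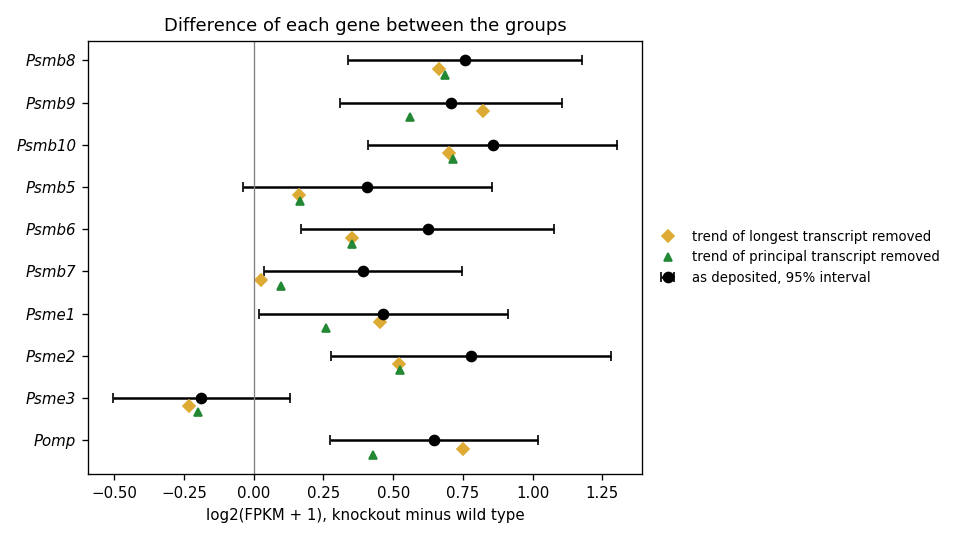
Log2 difference of FPKM + 1 between knockout and wild type for each gene, as deposited (black, with the 95% interval of limma) and with a length and GC surface subtracted, from the longest transcript (diamond) or the principal coding transcript (triangle). The inducible genes, Psme2 and Pomp keep differences of at least 0.43 in all 3 versions, while those of Psmb5 and Psmb7 come to between 0.025 and 0.17 with either surface subtracted.

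Levels between genes can be compared only per length, and the order depended on which length was used. In FPKM, with the summed exon length of the file, the wild-type means ran from Psmb10 (122 FPKM) through Psmb5, Psmb8, Psme1, Psmb6, Psme3, Psme2, Psmb9 and Psmb7 down to Pomp (15.3 FPKM). Among neighbours in that order, Psmb5 and Psmb8, Psme3 and Psme2, Psme2 and Psmb9, Psmb9 and Psmb7, and Psmb7 and Pomp did not overlap over the 3 libraries, and the other 4 neighbouring pairs did. In the knockout Psmb10 (226 FPKM) stood clear of Psmb5 (139 FPKM), Psmb6 passed above Psme1, and Psme2 passed above Psme3. There only Psmb10 and Psmb5, Psmb9 and Psmb7, and Psmb7 and Pomp were apart as neighbours.

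The file's length is 1 to 3.30 times that of the principal coding transcript, with the largest ratios for Pomp (5216 against 1579 bases), Psmb7 (3421 against 1160) and Psmb9 (3659 against 1352). Psmb5 has 899 bases in both. Scaled to library size and to the principal transcript in place of the file's length, wild-type levels were highest for Psmb6 (168 ± 23.1 length-scaled units, SD, n = 3) and Psmb10 (158 ± 6.99), and lowest for Psme3 (73.7 ± 6.64) and Pomp (50.3 ± 3.18). Psmb9 stood at 93.2 ± 9.78 and Psmb5 at 103 ± 11.7 on that scale, so Psmb9 was near the middle of the order. In the knockout Psmb10 led with 296 ± 63.6 units, followed by Psmb6 with 266 ± 52.0 and Psmb8 with 227 ± 41.3, and Psme3 came last with 65.2 ± 5.33.

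Over the 6 libraries the members other than Psme3 varied together, with Pearson's r of log2(FPKM + 1) from 0.776 to 0.984 (median 0.940) over their 36 pairs, while the 9 pairs with Psme3 had r from -0.796 to -0.403. These are descriptions over 6 libraries that share the group difference and the length trend. The 5 protein-coding genes most like the mean standardized level of Psmb8, Psmb9 and Psmb10 were Pla2g16 (r = 0.998), Tmem126a (0.998), Hspb11 (0.997), Btg3 (0.997) and Zcchc9 (0.996). An r above 0.95 was reached by 314 of 10024 protein-coding genes tested, or 3.13%. Pla2g16 was at 5.13 ± 0.449 FPKM in wild type and 9.81 ± 2.28 FPKM in the knockout (SD, n = 3 each).

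The rest of the proteasome was compared through its 20S and 19S subunits outside the members, 30 genes, of which 5 rose and 0 fell, with 26 differences above 0 and a median of 0.33 on the log2 scale. Of the 7 alpha ring genes, which form the gated outer rings, Psma7 (0.66, limma adjusted p = 0.0334) and Psma2 (0.59, limma adjusted p = 0.0383) rose and the median was 0.46. The 4 beta ring genes without an active site had 0 that passed and a median of 0.37. In the 19S cap, which unfolds substrates, Psmc6 rose (0.85, limma adjusted p = 0.0198) among 6 ATPase genes with a median of 0.31. Of its 13 non-ATPase genes, Psmd6 (0.55, limma adjusted p = 0.0334) and Sem1 (0.66, limma adjusted p = 0.0444) rose and the median was 0.19. With the longest-transcript surface subtracted, 1 of the 30 rose (Psma7), 1 fell (Psmd11, a subunit of the 19S lid), and the median was 0.13. The inducible catalytic genes ran from 0.71 to 0.86, against a median of 0.024 over all genes tested. Of all genes tested 5.91% rose and 8.3% fell, the background for these counts and for those of the lists below. No test of the difference between these groups of genes was made.

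**Figure D4:**
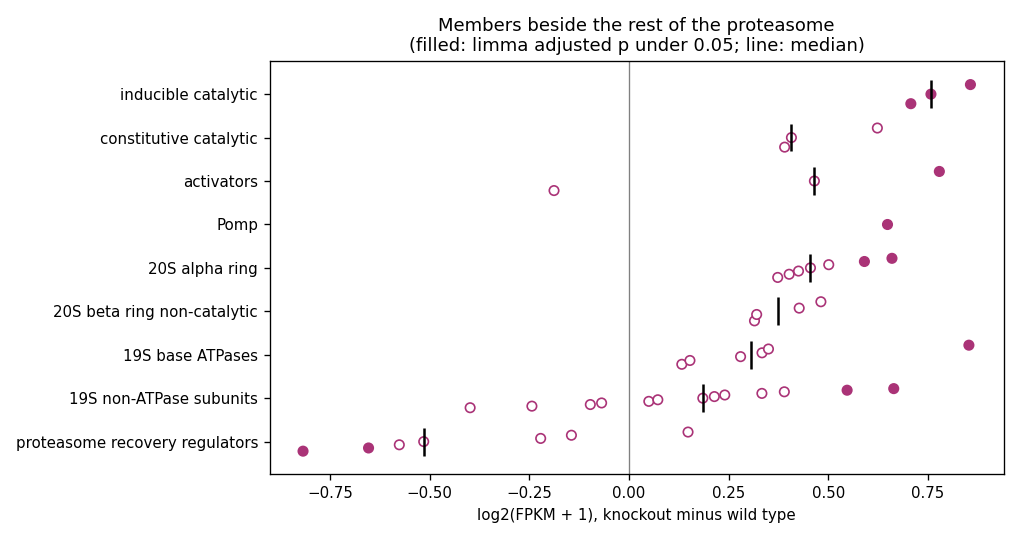
Log2 difference of FPKM + 1 between knockout and wild type for each gene of the members and of the other lists (points, filled where limma's adjusted p was under 0.05), with the median of each list (line). The inducible catalytic genes sit at 0.71 to 0.86, the medians of the 20S and 19S lists run from 0.19 to 0.46, and that of the recovery regulators is -0.51.

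Among 12 tested assembly chaperones and alternative regulators, Psme2b, Uchl5 (0.93, limma adjusted p = 0.0146), a deubiquitinase of the 19S cap, and Psmd10 (0.79, limma adjusted p = 0.0158), a 19S assembly chaperone, rose, 0 fell, and the median was 0.30. With the longest-transcript surface subtracted Uchl5 still rose (0.48, limma adjusted p = 0.0498), Psmd10 (0.37, limma adjusted p = 0.0698) and Psme2b no longer passed, and the median was 0.14. Psmg1, a chaperone of the alpha ring, was 0.52 higher without passing (limma adjusted p = 0.0913).

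Proteasome genes are known to be raised together, when proteasome activity fails, by the membrane-bound factor NRF1, the product of Nfe2l1, which the protease DDI2 releases. Only the transcripts of these genes were measured here, and the activity of NRF1 was not tested. Nfe2l1 stood at 111, 87.8 and 119 FPKM in wild type and at 57.4, 55.7 and 64.7 FPKM in the knockout, with no overlap. It fell by 0.82 on the log2 scale (limma adjusted p = 0.0180), and Ddi2 fell by 0.65 (7.13 ± 1.40 to 4.19 ± 1.02 FPKM, SD, n = 3 each, limma adjusted p = 0.0462). Of the 7 recovery regulators 0 rose and 2 fell, with a median of -0.51, beside 5.91% and 8.3% of all genes tested. With the longest-transcript surface subtracted the differences were -0.42 for Nfe2l1 and -0.24 for Ddi2, neither passed, and the list's median was -0.17.

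Interferon gamma induces Psmb8, Psmb9, Psmb10, Psme1 and Psme2 in part through IRF1, and NLRC5 raises class I genes with some of the same partners. Ifng had 0 fragments in every library, which does not bear on interferon from cells that were removed. Irf1 was at 284 ± 40.3 FPKM in wild type and 233 ± 9.51 FPKM in the knockout (SD, n = 3 each, log2 difference -0.27, limma adjusted p = 0.287). Nlrc5 was at 15.0 ± 3.09 FPKM and 14.5 ± 4.60 FPKM (log2 difference -0.073, limma adjusted p = 0.838), a direction that turned with a surface subtracted (0.50). Ifngr1, a subunit of the interferon gamma receptor, was 0.39 higher without passing (limma adjusted p = 0.0947).

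Downstream of the proteasome, 1 of 10 class I peptide loading genes rose and 0 fell, beside 5.91% and 8.3% of all genes tested. The gene that rose was Pdia3, a chaperone of the loading complex (0.61, limma adjusted p = 0.0412). All 10 differences were above 0, with a median of 0.25, beside a median of 0.024 over all genes tested. Pdia3 did not pass with the longest-transcript surface subtracted (0.48, limma adjusted p = 0.0692) or with the principal one (0.50, limma adjusted p = 0.0782), so 0 of the 10 passed with the first of these. Tap2, the partner of Tap1 in the transporter, was at 43.2 ± 4.57 FPKM in wild type and 51.2 ± 6.85 FPKM in the knockout (SD, n = 3 each, log2 difference 0.24, limma adjusted p = 0.318). With the longest-transcript surface subtracted, Tap1 was at 0.54 and Tap2 at 0.53, and with the principal one at 0.46 and 0.58, without passing. Psmb9 and Psmb8, which lie in the same stretch of chromosome 17, were at 0.82 and 0.66 and at 0.56 and 0.69 under those surfaces, so the order of Psmb9 and Tap2 turned with the principal one.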

How the data were processed

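Poly-A RNA sequencing of 3 wild-type and 3 Npm1 knockout libraries was deposited by the authors as 1 table of FPKM per gene and library, with replicates not pooled. The submitters' processing notes name CASAVA 1.8, HISAT2 2.0.5, featureCounts 1.5.0-p3, DESeq2 1.20.0 and build GRCm38, without roles; filters, strand setting and handling of multi-matching fragments are not stated in the sources at hand. FPKM times gene length was a whole number of fragments for 100% of values within a tolerance of 0.001, and totals implied by the scaling were 0.960 to 1.04 times the recovered ones.

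Log2(FPKM + 1) was tested with limma 3.58.1 in R 4.3.3 (mean trend, two-sided, Benjamini-Hochberg over 11287 genes averaging 1 FPKM or more), where rose and fell mean an adjusted p under 0.05. Differences are knockout minus wild type on that scale, which understates low genes. Ratios were tested with exact permutation tests, whose smallest p is 0.1. The length and GC surface was fitted per library with mgcv 1.9.3 over the longest transcript in GENCODE vM21. A surface over principal coding transcripts, levels per principal transcript and the sum of Psme2 and Psme2b were chosen after seeing the data.

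The members, gene lists and tests were chosen with earlier results of these data known. Named are the 10 members, Npm1, a set of regulators and transporter genes, up to 4 passing genes per list, and the 5 genes most like the inducible subunits; Psmd11, Psme2b and individual markers of cell types were named after their values were seen. Some genes that the rule names are left out of the text. The knockout comparison was tested on simulated data in which 200 of 11180 genes had changed. The test recovered 11.4% at 1.5-fold, 75% at 2-fold and 98.4% at 4-fold, with 18 false calls. The simulation gave all genes the same dispersion and held no length or GC trend. Its rates are therefore not error rates of the real comparison.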

Additional observations from a re-analysis of the deposited data

How the results depend on the processing

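The number of members higher in the knockout was 5 as reported. It became 0 with no filter on low values (24310 genes, 4543 at an unadjusted p under 0.05), 9 with array weights, 0 with a replicate block, 3 with the longest-transcript surface subtracted, 0 with that surface and the block, and 1 with the principal-transcript surface. It ran from 0 to 9 leaving out each library, and was 5 without knockout replicate 3 and 0 or 1 without any other library when the longest-transcript surface was subtracted too. That of members lower in the knockout was 0 in every setting run. The totals were 667 genes higher in the knockout and 937 genes lower in the knockout as reported, against 0 and 0 with no filter, 2690 and 2764 with array weights, 313 and 509 with the block, 143 and 175 with the longest-transcript surface, 0 and 0 with that surface and the block, and 94 and 120 with the principal one. Leaving out each library gave 6 to 1340 higher and 1 to 1465 lower. With that surface subtracted as well, the totals were 18 and 8, 179 and 381, and 0 and 0 without wild-type replicates 1, 2 and 3, and 2 and 3, 2 and 1, and 119 and 129 without knockout replicates 1, 2 and 3. Rescaling to TPM moved the median of all genes by -0.10 and gave 251 higher and 710 lower, so 26.1% of calls were upward against 41.6% as reported; the members' median was then 0.54, and 4 passed (Psmb8, Psmb9, Psmb10 and Pomp). The replicate numbers did not pair the samples (same-number correlations -0.185, 0.268 and -0.368), and under the block the ratios kept their values, with a smallest possible exact p of 0.25. The knockout minus wild-type difference in the log2 ratio Psmb9/Psmb6 ranged from -0.019 to 0.29 when each library was left out. The log2 difference of Psmb7 turned to -0.13 without wild-type replicate 1 and to -0.077 without knockout replicate 2, both with the longest-transcript surface subtracted. The log2 difference of Nlrc5 ran from -0.30 to 0.099 leaving out each library; it was 0.50 with the longest-transcript surface, with or without the block, and 0.51 with the principal one. With that surface and without wild-type replicates 1, 2 and 3 it was 0.64, 0.42 and 0.43, and without knockout replicates 1, 2 and 3 it was 0.57, 0.51 and 0.40. The inducible share of catalytic transcripts differed by 8.92 points with the longest-transcript surface. Over 25 alternatives the 10 members gave 250 differences. Of these, 165 were classed as the same, 71 as weaker and 12 as stronger, and 2 reversed, both of Psmb7. The causes of these moves were not tested. Depth was not the limit for any member, since counting error was at most 2.90%.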

Other observations

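Cytosolic and endoplasmic peptidases shorten or destroy proteasome products. Of 8 tested genes of this kind 0 passed upward and 0 downward with limma (1 each way at an unadjusted p under 0.05, Lap3 and Npepps), and the median was 0.093 on the log2 scale. Lap3, a leucine aminopeptidase known as an interferon gamma target, was at 33.1 ± 3.60 FPKM in wild type and 46.1 ± 7.05 FPKM in the knockout (SD, n = 3 each, log2 difference 0.46, limma adjusted p = 0.0762). Erap1, which trims peptides in the endoplasmic reticulum, was 0.36 higher (limma adjusted p = 0.183), and Npepps, a cytosolic aminopeptidase, had a difference of -0.52 (limma adjusted p = 0.0946).

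Rps27a, which codes for ubiquitin fused to a ribosomal protein, rose from 217 ± 68.5 FPKM to 485 ± 121 FPKM (SD, n = 3 each, log2 difference 1.18, limma adjusted p = 0.0261). It was at 0.75 with the longest-transcript surface subtracted and did not pass there. The polyubiquitin gene Ubb had a difference of 0.43 and did not pass (limma adjusted p = 0.210).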
